A study of Mus musculus with 6 samples.

Results

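The proteasome genes were examined in RNA from Neuro2a, a mouse neuroblastoma line, after adenoviral delivery of short hairpin RNAs. The genes were chosen by symbol, as every gene row whose name begins with Psm, a letter from a to g and a number, leaving out pseudogene symbols. This gave 50 of 24421 genes in the count table. No measured value enters that rule, but the family was proposed with results of the comparison below already known, so its counts, fold changes and p-values are given as a description of the fit across all genes and support nothing on their own. The series compared 3 samples that received ADV-shCtrl, an adenovirus with a control hairpin, with 3 that received ADV-shFam172a, an adenovirus with a hairpin against Fam172a. All 6 samples came from the wild-type line, carried a virus and were harvested after 48 h, and each group rests on 1 virus in 1 cell line. No label states that replicates were separate cultures or infections, and the p-values therefore measure a spread that can be technical alone.

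The proteasome is the barrel-shaped protease that degrades proteins tagged with ubiquitin. Its 20S core is built of rings of alpha subunits (Psma genes), which gate the channel, and beta subunits (Psmb genes), of which Psmb5, Psmb6 and Psmb7 carry the cutting sites. The 19S cap sits on the core, with a base that unfolds substrates through AAA ATPases (Psmc genes) and a lid that removes ubiquitin (Psmd genes). Interferon exchanges the cutting subunits for Psmb8, Psmb9 and Psmb10, the immunoproteasome, and other caps (Psme genes) replace the 19S cap. Assembly needs chaperones (Psmg genes and a few Psmd genes). When proteasome activity drops, the transcription factor NRF1, encoded by Nfe2l1, is known to raise the subunit genes through antioxidant response elements in their promoters.

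Gene counts per library were 11250312 to 12820531 in shCtrl and 21690467 to 23409319 in shFam172a, so depth and group cannot be told apart. Fam172a stood at 18.6 to 19.5 CPM (read counts scaled to library size, with TMM factors) in shCtrl and at 8.28 to 9.22 CPM in shFam172a (log2 fold change -1.10 ± 0.092, SE). Reads with several alignments, which were counted under no gene, made up 9.58% to 9.71% of the counted reads in shCtrl and 9.99% to 10.4% in shFam172a. Of 12 Neuro2a markers, 11 passed the filter on low counts. Of these, 5 were higher in shFam172a (Hand2 at 0.33 and Phox2a at 0.31 on the log2 scale the farthest) and 2 lower (Elavl4 at -0.50 and Map2 at -0.15), and their part in the family's values was not tested. At adjusted p under 0.05 in the edgeR fit, 17.5% of all tested genes were higher and 18.6% lower. The shFam172a replicate 3 library stood apart from the other two in reads of too low alignment quality, at 4.46% against 6.65% and 7.12%. Rn45s, a ribosomal RNA precursor, stood at 410 to 565 CPM in shCtrl and at 793 to 1141 CPM in shFam172a, and reads in no annotated feature made up 16.4% to 16.6% and 17.2% to 17.9%. Neither overlapped between the groups, and their part in the results was not tested.

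Promoter windows are shown because the subunit genes share a known regulatory element. RefSeq windows on GRCm38.p6, from 250 bases before to 50 after a gene's start, were at hand for 42 of the 50 genes. The core of the antioxidant response element, TGACNNNGC on either strand, lay in 6 of these (14.3%), against 17.1% of 9749 tested genes with a window. It was in 3 of 17 windows of members that were lower in shFam172a and in 3 of 23 windows of other tested members. The ETS core CCGGAAG, on either strand, lay in 15 of 42 members (35.7%) and in 20% of tested genes, and CCAAT in 35.7% and 43.4%. By call, the ETS core was in 9 of 17 windows of members that fell and in 6 of 23 of the others tested. Below are 4 of the 6 windows with the antioxidant core, for a cutting subunit that fell (Psmb6), one that was not called (Psmb5), an ATPase that fell (Psmc6) and the activator that rose (Psme4). They run from 250 bases before to 10 after the start, 5′ to 3′ on the gene's strand, and capitals mark matches to the 3 motifs, none of which overlap; these 4 windows hold no CCAAT.
Psmb6, chr11:70525107-70525366, plus strand: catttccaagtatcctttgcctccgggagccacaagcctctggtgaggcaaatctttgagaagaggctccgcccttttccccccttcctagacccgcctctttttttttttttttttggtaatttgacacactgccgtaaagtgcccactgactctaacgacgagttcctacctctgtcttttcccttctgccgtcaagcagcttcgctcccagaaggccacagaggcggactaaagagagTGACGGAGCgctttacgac
Psmb5, chr14:54617986-54618245, minus strand: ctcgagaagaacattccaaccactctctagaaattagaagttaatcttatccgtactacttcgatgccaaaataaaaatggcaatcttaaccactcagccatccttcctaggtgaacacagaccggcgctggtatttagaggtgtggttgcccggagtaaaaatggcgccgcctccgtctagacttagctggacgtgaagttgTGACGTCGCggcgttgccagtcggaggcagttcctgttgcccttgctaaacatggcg
Psmc6, chr14:45329574-45329833, plus strand: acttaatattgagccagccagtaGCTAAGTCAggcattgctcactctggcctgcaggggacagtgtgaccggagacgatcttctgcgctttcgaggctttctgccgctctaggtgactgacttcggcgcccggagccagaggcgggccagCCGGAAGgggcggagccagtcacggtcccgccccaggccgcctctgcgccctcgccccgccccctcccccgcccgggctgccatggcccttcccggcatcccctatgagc
Psme4, chr11:30771525-30771784, plus strand: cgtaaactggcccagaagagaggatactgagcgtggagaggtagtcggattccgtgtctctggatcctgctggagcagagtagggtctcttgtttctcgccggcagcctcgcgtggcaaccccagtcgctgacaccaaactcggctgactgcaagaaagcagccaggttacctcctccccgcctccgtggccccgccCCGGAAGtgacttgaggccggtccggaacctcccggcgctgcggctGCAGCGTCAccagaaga
Counted from the start, the antioxidant core began at -9 in Psmb6, at -47 in Psmb5, at -227 in Psmc6 and at -7 in Psme4. The ETS core began at -100 in Psmc6 and at -53 in Psme4. These 4 windows were picked by call, so their spread over genes that were lower, higher and not called follows from the choice. A match is a description of the letters and not a measured binding site.

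Proteasome genes were lower in shFam172a by small amounts. Of the 50 genes, 47 passed the filter on low counts; 23 of these fell, 1 rose and 23 did not pass the threshold (edgeR quasi-likelihood test, Benjamini-Hochberg adjusted p under 0.05, two-sided, over 12820 genes). Across all genes tested, 18.6% were lower and 17.5% higher. The median log2 fold change was -0.11 over the 47 genes and -0.0003 over all genes tested. The 23 decreases were small: the gene nearest to 0, Psmb1, fell by 5.44%, and the gene farthest from it, Psmg2, fell by 25.0%. The median size of a called change was 0.15 on the log2 scale in this family and 0.22 over all called genes. In 26 of the 47 genes all shFam172a libraries lay below all shCtrl libraries, and in 1 they lay above. Over all 12820 tested genes, this held for 3011 and 2880. In either direction, the groups thus did not overlap in 27 of the 47 genes and in 46.0% of all tested genes. The 3 genes below the filter were Psma8, Psmb11 and Psme2b. All counts, levels and differences here are of RNA, and fewer cells that express a gene cannot be told apart from less RNA per cell.

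**Figure D1:**
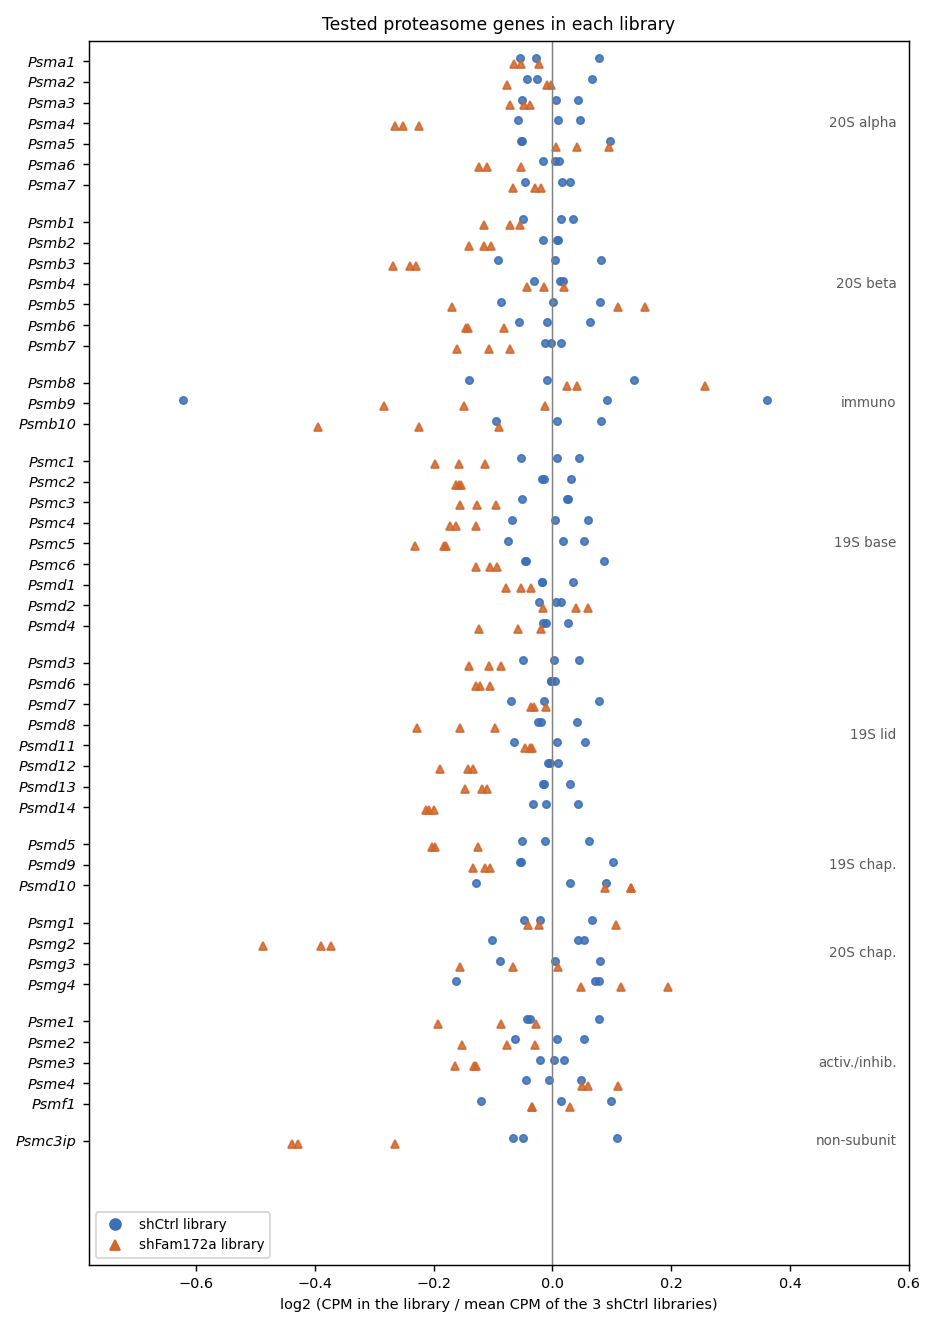
Each row is a tested proteasome gene and each point 1 library, on the horizontal axis as log2 of its CPM over the mean CPM of the 3 shCtrl libraries; circles are shCtrl and triangles shFam172a. In 26 of 47 rows every triangle lies left of every circle, and in 1 row, Psme4, every triangle lies to the right.

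In the alpha ring, 2 of 7 genes fell (28.6%) and 0 rose, where 18.6% of all tested genes were lower and 17.5% higher. The other 5 ring genes were not called, and the median log2 fold change of the ring was -0.05. Psma4, an alpha subunit on chromosome 9 (54950790 to 54958030, GRCm38), stood at 146, 158 and 153 CPM in shCtrl and at 130, 127 and 128 CPM in shFam172a. Every shFam172a library was below every shCtrl library (log2 fold change -0.25 ± 0.035, adjusted p = 4.5e-07). Of its 50-base stretches, 25.6% are also found in an annotated processed pseudogene. Psma6 had 250, 254 and 255 CPM against 235, 244 and 233 CPM, again without overlap (-0.10 ± 0.030, adjusted p = 0.012). The value of Psma6 was -0.04 with adjusted p = 0.26 when the length of the coding transcript and GC content were taken into account, and without shCtrl replicate 3 its adjusted p was 0.057. Psma2 lay at 135, 144 and 133 CPM against 137, 137 and 130 CPM, so the groups overlapped. The other 4 were between -0.05 and 0.05, and of these Psma7 was lower with the offset for merged exon length and GC content (adjusted p = 0.030). Psma5, also of these 4, shares 54.45% of its 50-base stretches with pseudogenes.

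In the constitutive beta ring, 5 of 7 genes fell (71.4%) and 0 rose, against 18.6% lower and 17.5% higher over all tested genes. The other 2 ring genes were not called, and the ring's median was -0.11. Without shCtrl replicate 2, 3 of the 7 fell, since Psmb1 (adjusted p = 0.21) and Psmb6 (adjusted p = 0.096) were no longer called. Psmb1 lay at the threshold (adjusted p = 0.046) and was also not called without shCtrl replicate 1 (0.12), shFam172a replicate 2 (0.087) or shFam172a replicate 3 (0.15). Nor was Psmb1 called by DESeq2 (adjusted p = 0.11) or limma-voom (0.052), with RLE (0.053) or upper quartile scaling (0.11), with no filter (0.081) or a stricter one (0.052), with the replicate block (0.063), or with the offset by longest (0.086) or coding transcript (0.13). Psmb3, a structural beta subunit on chromosome 11 (97703399 to 97713500), had 204, 230 and 218 CPM in shCtrl and 184, 185 and 180 CPM in shFam172a. This was the largest of the 5 beta ring falls, at -0.25 ± 0.034 (adjusted p = 3.4e-07), and the groups did not overlap. More than any other core gene, Psmb3 shares sequence with pseudogenes (55.8% of its 50-base stretches). Of the 3 cutting subunits, the trypsin-like Psmb7 stood at 245, 244 and 248 CPM against 234, 228 and 220 CPM (-0.11 ± 0.031, adjusted p = 0.0037). The caspase-like Psmb6 stood at 141, 153 and 145 CPM against 132, 138 and 133 CPM (-0.12 ± 0.036, adjusted p = 0.0063). Both were thus lower in every shFam172a library. On the opposite strand, Nek6 exons cover 11.8% of the Psmb7 exons, and the strand setting of the counting is not given. The chymotrypsin-like Psmb5 did not pass, with 56.6, 53.6 and 50.4 CPM against 59.6, 57.8 and 47.6 CPM (0.04 ± 0.071, adjusted p = 0.71), and its shFam172a replicate 3 was the lowest of the 6 libraries. Without that library, Psmb5 was at 0.13 with adjusted p = 0.046. Psmb4 had 209, 216 and 216 CPM against 217, 212 and 207 CPM (-0.01 ± 0.031, adjusted p = 0.80), with overlap. With the coding transcript length and GC content taken into account, Psmb7 was at -0.03 with adjusted p = 0.37, and with merged exon length at -0.06 with adjusted p = 0.11. Psmb2, at -0.12, had adjusted p = 0.079 after the coding transcript offset.

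All 6 ATPase genes of the 19S base fell, by -0.20 to -0.11 on the log2 scale, and in none of the 6 did the groups overlap. With the 3 non-ATPase genes counted, 66.7% of the base genes fell, against 18.6% of all tested genes. The groups did not overlap in 46% of all tested genes. Psmc5, the ATPase Rpt6 on chromosome 11 (106256154 to 106263120), had 199, 217 and 212 CPM in shCtrl and 184, 185 and 178 CPM in shFam172a (-0.20 ± 0.033, adjusted p = 8.4e-06). Psmc1, the ATPase Rpt2, had 264, 282 and 275 CPM against 246, 239 and 253 CPM (-0.16 ± 0.031, adjusted p = 1.2e-04). Psmc2, Psmc3, Psmc4 and Psmc6 were at -0.16, -0.13, -0.16 and -0.11. With coding transcript length and GC content taken into account, Psmc6 was at -0.03 (adjusted p = 0.51) and the other 5 remained lower. Without shCtrl replicate 2, Psmc6 was at -0.06 (adjusted p = 0.20). With the offset for merged exon length and GC content, Psmc6 had adjusted p = 0.33. The 3 non-ATPase base genes matched by the symbol rule did not pass. Psmd2, the scaffold Rpn1 and by CPM the most abundant gene of the family, had 569, 566 and 555 CPM against 587, 557 and 579 CPM, so its groups overlapped (0.03 ± 0.028, adjusted p = 0.46). Pseudogenes share 26.4% of the 50-base stretches of Psmd2 and 17.6% of those of Psmc1. Psmd1 and Psmd4 were at -0.06 and -0.07, and with the offset for merged exon length and GC content both were lower (adjusted p = 0.017 and 0.044).

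In the 19S lid, 6 of the 8 genes matched by the symbol rule fell (75%) and 0 rose. The other 2 were not called, and the lid's median was -0.12. Of all tested genes, 18.6% were lower and 17.5% higher. Psmd14 encodes Rpn11, the deubiquitinase that releases ubiquitin chains from substrates, and lies on chromosome 2 (61711694 to 61800376). It stood at 207, 214 and 204 CPM in shCtrl and at 181, 180 and 180 CPM in shFam172a (-0.21 ± 0.031, adjusted p = 1.5e-06). The shFam172a libraries lay close together and below every control. Psmd12 had 222, 224 and 222 CPM against 196, 202 and 203 CPM (-0.15 ± 0.031, adjusted p = 1.1e-04), also without overlap. Psmd3, Psmd6, Psmd8 and Psmd13 fell by 0.11 to 0.16 on the log2 scale. Psmd3 had adjusted p = 0.074 without shCtrl replicate 3, and Psmd6 was at -0.07 with adjusted p = 0.078 after the coding transcript offset. Psmd7, the partner of Psmd14 in the lid, had 208, 216 and 231 CPM against 214, 213 and 217 CPM (-0.03 ± 0.033, adjusted p = 0.58), and Psmd11 was at -0.04. Summed over base and lid, the 17 genes of the 19S cap that match the symbol rule came to 3592, 3713 and 3661 CPM in shCtrl. In shFam172a they came to 3429, 3416 and 3414 CPM. The cap subunits Adrm1 and Shfm1 lie outside that rule and are in none of the base, lid and cap values. The 14 genes of the 20S core summed to 2449, 2577 and 2497 CPM and to 2393, 2382 and 2325 CPM. Neither sum overlapped between the groups, and the difference between core and cap was not tested.

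**Figure D2:**
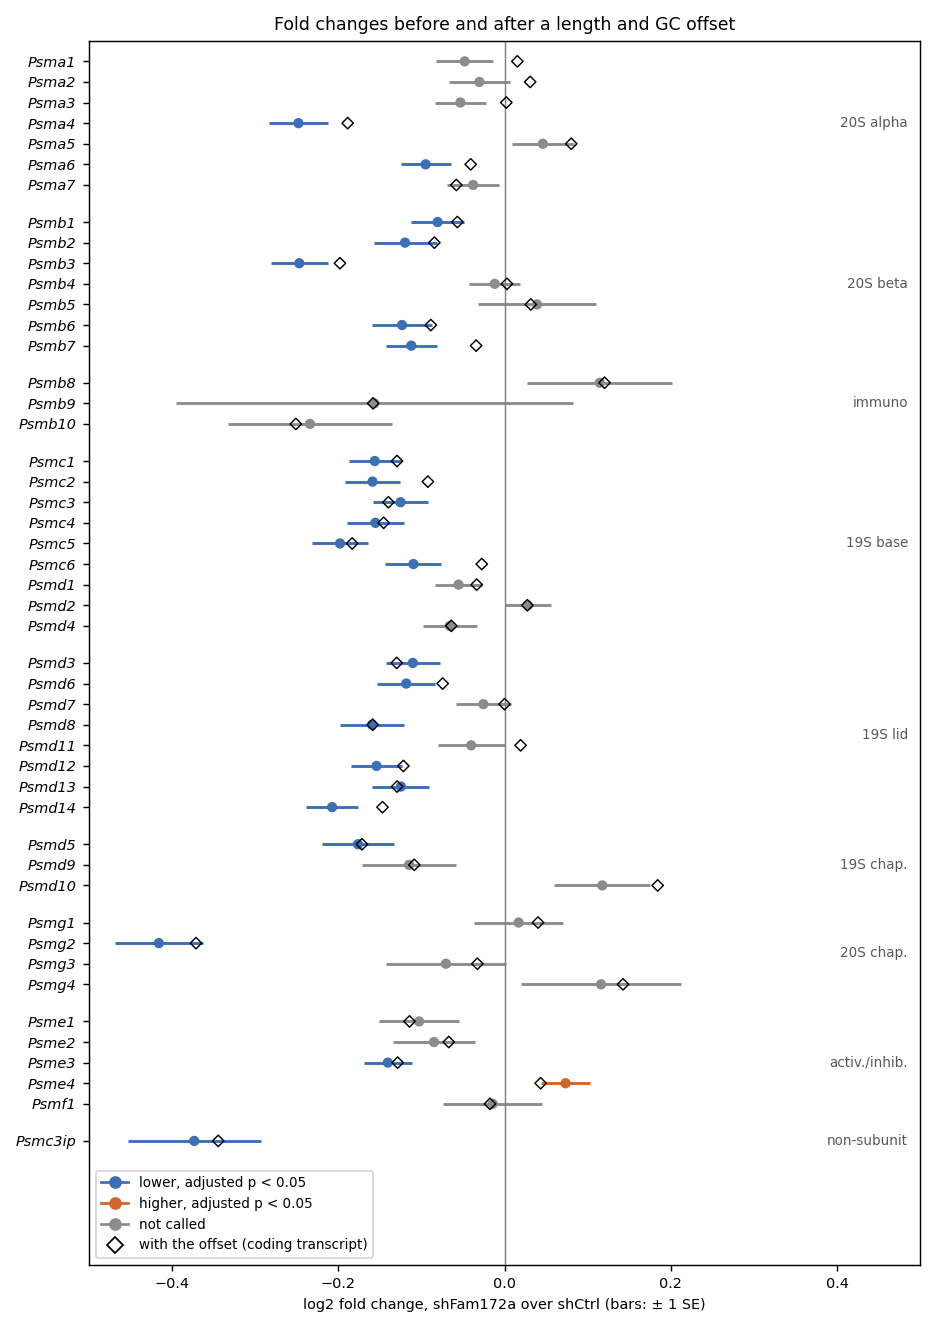
Log2 fold change of each tested gene (filled circles, bars ± 1 SE; blue lower, orange higher, grey not called), with open diamonds for the value after an offset for coding transcript length and GC content. The 6 ATPase genes Psmc1 to Psmc6 lie left of 0 on both measures, and Psmg2 lies farthest left at -0.42.

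Of 4 chaperones of core assembly, Psmg2 fell and the other 3 did not pass. The share of these genes that fell was thus 25%, against 18.6% of all tested genes. Psmg2 forms the chaperone PAC1-PAC2 with Psmg1 and holds alpha subunits together while the ring closes. It had 53.4, 59.0 and 59.4 CPM in shCtrl and 43.7, 44.3 and 40.9 CPM in shFam172a, the lowest fold change of the family (-0.42 ± 0.053, adjusted p = 4.7e-08). Psmg1 had 48.4, 47.4 and 51.4 CPM against 52.8, 48.3 and 47.7 CPM, with overlapping groups (0.02 ± 0.053, adjusted p = 0.84). Psmg4, of the other chaperone pair, had 13.0, 13.1 and 11.1 CPM against 14.2, 13.4 and 12.8 CPM (0.12 ± 0.096, adjusted p = 0.37), and Psmg3 was at -0.07 ± 0.072. The difference between Psmg2 and Psmg1 was not tested. Pomp, the maturation factor of the beta ring, is named outside the symbol rule. It had 99.97, 96.6 and 110.0 CPM against 85.6, 89.4 and 94.0 CPM (-0.19 ± 0.044, adjusted p = 9.6e-04), without overlap.

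Of 3 chaperones of cap assembly, 1 fell (33.3%) and 2 did not pass, where 18.6% of all tested genes were lower. Psmd5 fell, from 81.3, 87.9 and 83.5 CPM to 77.2, 73.4 and 73.2 CPM (-0.18 ± 0.043, adjusted p = 0.0013). Psmd10, known as gankyrin, had 34.6, 38.6 and 40.3 CPM in shCtrl and 41.5, 40.3 and 41.5 CPM in shFam172a. The groups overlapped and it did not pass (0.12 ± 0.058, adjusted p = 0.11), but with length and GC content taken into account it was at 0.16 to 0.18 with adjusted p of 0.0092 to 0.020. Psmd9 was at 39.0, 38.9 and 43.4 CPM against 36.9, 37.6 and 37.4 CPM, lower in every library but not past the threshold (-0.12 ± 0.057, adjusted p = 0.11), and at -0.16 with adjusted p = 0.025 after the offset for merged exon length and GC content. On the opposite strand, exons of Gm26745 cover 25.5% of the Psmd9 exons, and the strand setting of the counting is not given.

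Of the alternative caps, 1 fell and 1 rose. Counted with the inhibitor Psmf1, these were 20% and 20% of 5 tested genes. Over all tested genes the shares were 18.6% lower and 17.5% higher. Psme3, which encodes PA28 gamma, had 345, 336 and 341 CPM in shCtrl and 304, 311 and 312 CPM in shFam172a (-0.14 ± 0.029, adjusted p = 1.4e-04). Psme4, which encodes PA200, was the gene that rose, from 425, 441 and 413 CPM to 444, 441 and 460 CPM (0.07 ± 0.029, adjusted p = 0.046). The lowest shFam172a library of Psme4 lay just above the highest control library. Its call did not hold under 13 of 20 other settings, among them the fits without shCtrl replicate 1 (adjusted p = 0.083), shCtrl replicate 3 (0.24), shFam172a replicate 1 (0.050) and shFam172a replicate 3 (0.16). Psme1 and Psme2, which form the interferon-inducible PA28 ring, were at -0.10 ± 0.049 and -0.09 ± 0.050 and did not pass, although Psme1 had adjusted p = 0.034 without shFam172a replicate 1 and was lower with the length and GC offset by each of the 3 lengths (adjusted p of 0.025, 0.027 and 0.045). Psme2 shares 59.3% of its 50-base stretches with Psme2b or a pseudogene, so its value is uncertain, and Psme2b had 0 or 1 count in each library. Psmf1, the inhibitor PI31, had 34.2, 39.8 and 37.6 CPM against 36.3, 36.3 and 38.0 CPM, with overlap (-0.01 ± 0.060, adjusted p = 0.88).

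Immunoproteasome genes were low in both groups, and 0 of 3 passed the threshold in either direction by edgeR, DESeq2 or limma-voom. In edgeR, 36.1% of all tested genes passed it in either direction. At an unadjusted p under 0.05, 1 of the 3 passed in edgeR, and this was Psmb10. Psmb8, which replaces Psmb5, had 16.8, 15.3 and 18.6 CPM in shCtrl and 20.2, 17.4 and 17.2 CPM in shFam172a (0.11 ± 0.087, adjusted p = 0.32). Psmb9, which replaces Psmb6, had 1.46, 2.88 and 2.39 CPM against 2.22, 1.84 and 2.02 CPM, from 17 to 48 counts per library (-0.16 ± 0.24, adjusted p = 0.65). The groups of both overlapped, and at this depth a small difference in Psmb9 was not detectable. Psmb10, which replaces Psmb7, had 13.0, 14.7 and 14.0 CPM against 11.9, 10.6 and 13.1 CPM (-0.23 ± 0.099, adjusted p = 0.060). Its highest shFam172a library lay above its lowest control library, and with an offset for length and GC content, by any of 3 length definitions, its adjusted p was 0.034 to 0.046. It was also under the threshold without shCtrl replicate 1 (adjusted p = 0.048) and without shFam172a replicate 3 (adjusted p = 0.019). Per kilobase of merged exons, Psmb8 was 8.44% ± 1.20 (SD, n = 3) of Psmb5 in shCtrl and 8.88% ± 0.812 in shFam172a. Psmb10 was 11.4% ± 0.731 of Psmb7 and then 10.5% ± 1.34, and Psmb9 was 0.779% ± 0.224 of Psmb6 and then 0.775% ± 0.0892. The ranges of all 3 ratios overlapped between the groups.

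**Figure D3:**
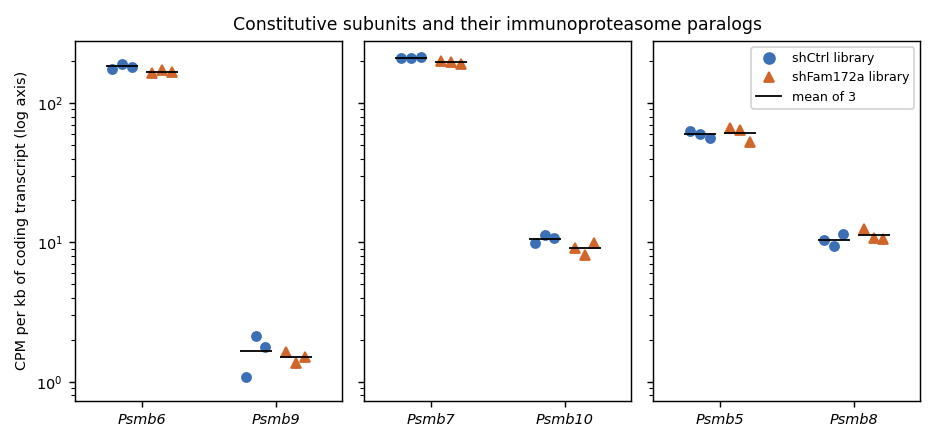
CPM per kilobase of coding transcript (log axis) for each cutting subunit of the constitutive core and the immunoproteasome gene that replaces it; circles are shCtrl libraries, triangles shFam172a libraries and bars the mean of 3. Each immunoproteasome gene lies below its constitutive paralog in every library, with Psmb9 lowest.

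Psmb5 shares 50% of its 50-base stretches with pseudogenes and 12.1% of its exons lie over Mir686, and Gm20496 on the opposite strand covers 14.7% of the Psmb8 exons, so the ratio of Psmb8 to Psmb5 is uncertain. Nek6 exons on the opposite strand cover 11.8% of the Psmb7 exons, so the ratio of Psmb10 to Psmb7 is uncertain as well. Tap1 exons overlap 5.79% of the Psmb9 exons on the opposite strand. The tissue-restricted core genes were at or near 0. Psma8, known from testis, was at 0 counts in each of the 6 libraries. A count of 0 over the summed depth allows a level of up to 0.0291 CPM, for counting error only, and Psmb11, of the thymus, had 0 to 3 counts per library. Immune cells are the usual source of immunoproteasome RNA. Of 8 leukocyte and macrophage markers, Ptprc, Itgam and Cd3e were at 0 in all libraries. The summed level of the 8 was 0.312 to 1.06 CPM in shCtrl and 1.24 to 1.39 CPM in shFam172a. Only 1 of the 8, Cd68, passed the filter on low counts, and it was called higher by edgeR (adjusted p = 0.048). Cd68 had 3 to 8 counts per library in shCtrl (0.234 to 0.709 CPM) and 21 to 24 in shFam172a (0.901 to 1.11 CPM). The part of these markers in the immunoproteasome values was not tested.

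Of the genes that load peptides onto class I molecules downstream of the proteasome, or regulate them, 9 of 10 were tested. Of these, 2 rose (22.2%), 1 fell (11.1%) and 6 did not pass, where 17.5% of all tested genes were higher and 18.6% lower. B2m, the light chain of class I molecules, had 109.7, 111 and 116 CPM in shCtrl and 84.0, 91.1 and 85.9 CPM in shFam172a (-0.36 ± 0.040, adjusted p = 2.8e-09). Erap1, a peptide-trimming protease, went from 31.2, 31.4 and 29.2 CPM to 36.0, 35.3 and 37.1 CPM (0.24 ± 0.060, adjusted p = 0.0019). Tapbp, the loading chaperone tapasin, was at 0.16 ± 0.048 (adjusted p = 0.0080), and at 0.12 with adjusted p = 0.052 after the offset for merged exon length and GC content. These 3 genes did not overlap between the groups. The peptide pumps Tap1 and Tap2 were at 0.10 ± 0.12 and 0.05 ± 0.061 and did not pass. The interferon-driven factor Irf1 was at 0.06, also without passing.

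Partners of the proteasome outside the symbol rule were mixed. Of 17 tested, 6 fell (35.3%), 2 rose (11.8%) and 9 were not called, and the list's median was -0.08. Over all tested genes, 18.6% were lower and 17.5% higher. The deubiquitinase Uchl5, which docks on the 19S cap, had 108, 125 and 120 CPM in shCtrl and 94.4, 99.5 and 96.4 CPM in shFam172a (-0.28 ± 0.042, adjusted p = 1.1e-06). Usp14, another deubiquitinase of the cap, had 179, 188 and 182 CPM against 166, 163 and 165 CPM (-0.15 ± 0.032, adjusted p = 2.3e-04). Both were lower in all 3 shFam172a libraries. AI314180, now named Ecpas, encodes the adaptor Ecm29 that tethers cap to core, and rose from 267, 264 and 253 CPM to 282, 285 and 293 CPM (0.13 ± 0.030, adjusted p = 6.8e-04). The cap subunits Adrm1 and Shfm1 (now Sem1), which receive substrates or brace the lid, were at -0.06 ± 0.041 and -0.11 ± 0.076 and did not pass. Adrm1 was at -0.10 with adjusted p = 0.033 after the offset for merged exon length and GC content, and Shfm1 had adjusted p of 0.023 without shCtrl replicate 1 and 0.021 without shFam172a replicate 2.

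Genes of ubiquitin supply and activation were also examined. Rps27a, a fusion of ubiquitin and a ribosomal protein, had 869, 887 and 829 CPM against 814, 785 and 758 CPM (-0.13 ± 0.029, adjusted p = 2.9e-04). With the coding transcript length and GC content taken into account it was at -0.06 (adjusted p = 0.061). Uba1, the main activating enzyme, was at -0.11 ± 0.027 (adjusted p = 0.0014).

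Nfe2l1, which encodes NRF1, did not pass. It had 367, 360 and 370 CPM in shCtrl and 379, 369 and 359 CPM in shFam172a, with overlapping groups (0.01 ± 0.029, adjusted p = 0.74). Ddi2, the protease that activates NRF1, had 33.0, 34.0 and 32.8 CPM against 34.9, 34.7 and 36.1 CPM (0.08 ± 0.059, adjusted p = 0.28). NRF1 is controlled by degradation and cleavage of its protein, which RNA counts do not measure. Of the 10 genes of this pathway, 4 rose, 1 fell and 5 did not pass, where 17.5% of all tested genes were higher and 18.6% lower. Maff, a small MAF protein that can pair with NRF1, rose from 47.2, 41.3 and 47.8 CPM to 68.5, 71.4 and 67.8 CPM (0.61 ± 0.052, adjusted p = 3.5e-12). Syvn1, a ligase of the endoplasmic reticulum that targets NRF1, rose as well (0.31 ± 0.066, adjusted p = 2.8e-04). Nfe2l2, which encodes the related factor NRF2, was at -0.16 ± 0.051 (adjusted p = 0.015) and did not pass by DESeq2 (adjusted p = 0.058), without shCtrl replicate 1 (0.10) or without shFam172a replicate 1 (0.082).

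Psmc3ip matches the symbol rule but is no subunit, and encodes a protein of meiotic recombination that binds the ATPase Psmc3. It had 21.2, 21.0 and 23.7 CPM in shCtrl and 18.3, 16.3 and 16.2 CPM in shFam172a (-0.37 ± 0.080, adjusted p = 2.8e-04). Its groups did not overlap, and exons of Mlx cover 21.2% of its own on the opposite strand. Without it, 22 of 46 tested genes fell.

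Proteasome transcripts are short, and by coding transcript length short transcripts were lower across the whole table. The family was therefore set beside genes of the same length. The longest coding transcript had a median of 1440 bases in the 47 tested members and 3158 bases over all tested genes with such a length. Among transcripts of 1000 to under 2000 bases, 16 of 28 members were lower (57.1%), against 23.3% of 2386 tested genes in that class, with medians of -0.12 and -0.04. Under 1000 bases, 3 of 7 members were lower (42.9%), against 28.8% of 565 genes, with medians of -0.09 and -0.08. From 2000 to under 4000 bases, 3 of 10 members were lower (30.0%), against 21.1% of 4975 genes, with medians of -0.05 and -0.02. Of 4000 bases or more there were 2 members, 1 lower and 1 higher, against 14.0% lower and 26.7% higher of 4228 genes, with medians of -0.05 and 0.04. In the shortest class the medians of members and all genes were alike. By merged exons, which include introns retained in some transcripts, 7 of 13 members of 1000 to under 2000 bases were lower (53.8%), against 19.5% of 1376 genes. Under 1000 bases of merged exons, 0 of 2 members were lower. Of the 355 genes in that class, 15.8% were lower and 7.61% higher, with a median of -0.005. From 2000 to under 4000 bases, 12 of 22 members were lower (54.5%), against 21.9% of 3926 genes. Of 4000 bases or more, 4 of 10 members were lower (40.0%), against 16.9% of 7097 genes.

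**Figure D4:**
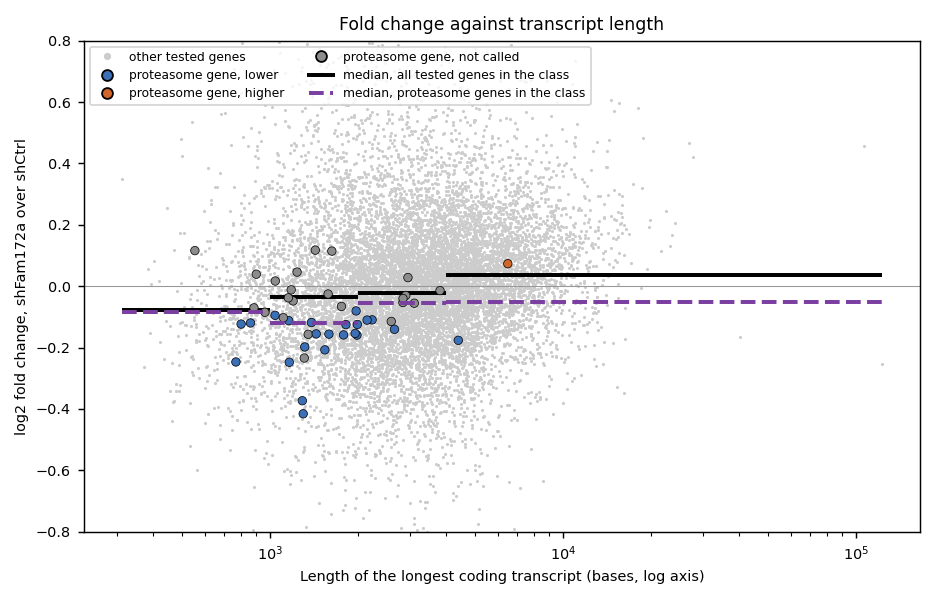
Log2 fold change (vertical axis, cropped, with 189 other genes beyond it) against the length of the longest coding transcript in bases (log axis), for tested genes (grey) and proteasome genes (outlined, coloured by call). Solid lines are class medians of all tested genes and dashed lines those of proteasome genes; at 1000 to under 2000 bases they stand at -0.04 and -0.12.

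The comparison was repeated with an offset in each library for length and GC content. With merged exon length, 27 members were lower and 1 higher, against 21.7% and 14.4% of all genes in that fit, and the median was -0.09. With the length of the coding transcript, 19 were lower and 1 higher, against 20.2% and 14.8% of all genes, and the median was -0.07. The member that rose under both was Psmd10, not Psme4. Of the 23 genes that fell without an offset, 17 also fell with the coding transcript offset. Of the 14 core genes, 7 fell without an offset, 7 with the offset for merged exons, 6 by the longest transcript and 3 by the coding transcript (Psma4, Psmb3 and Psmb6). The core median was -0.07 without an offset, -0.07 with merged exons, -0.06 by the longest transcript and -0.04 by the coding transcript. The smaller core count thus came with the coding transcript, a length chosen after seeing the data. Of the 17 cap genes, 12 fell without an offset, 13 with merged exons, 11 by the longest transcript and 10 by the coding transcript, and the cap median was -0.12 to -0.13 in these 4 fits. Whether core and cap differ was not tested.

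Levels between the genes were compared per kilobase, within shCtrl. By coding transcript, the 14 core genes ranged from 47.2 ± 1.97 (SD, n = 3) CPM per kilobase for Psma2 to 284 ± 17.1 for Psmb3, although their proteins are present in equal number in the particle. The 17 cap genes ranged from 33.2 ± 1.38 for Psmd11 to 190 ± 2.56 for Psmd2. The immunoproteasome genes were at 10.6 ± 0.647 (Psmb10), 10.4 ± 1.003 (Psmb8) and 1.66 ± 0.535 (Psmb9), of which the first and second did not differ beyond their spread. The chaperones Psmg1 and Psmg2 were alike in shCtrl, at 47.0 ± 1.98 and 44.1 ± 2.59, and lay at 47.5 ± 2.69 and 33.0 ± 1.41 in shFam172a. The order rests on the length used: by merged exons Psma6 led, at 205 ± 1.99, and Psmb3 was at 94.5 ± 5.71.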

How the data were processed

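RNA was extracted with TRIzol and made into VAHTS V6 libraries, sequenced as pairs on a NovaSeq, per the labels' protocols. The deposited tables hold raw read counts for each gene, whole numbers with no normalization. The submitters' processing notes list HISAT2 2.0.5, HTSeq and mm10; the annotation and the strand setting were not stated. The series table was used, and the 6 tables of single samples were checked to hold identical counts. Its 5 rows that name no gene, 33.5% to 37.6% of the reads counted in a library, stayed out of library sizes and tests.

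Of 18128 genes with a count, filterByExpr kept 12820. TMM scaling and edgeR 4.0.16 (glmQLFit with robust dispersion, glmQLFTest) in R 4.3.3 compared the groups. The SE was taken as the size of the log2 fold change over the root of F. The fits were tested on simulated data. The length and GC offset is a smooth (mgcv 1.9.3, basis size 6) of each library's deviation in log2 CPM (prior count 2). It was fitted over genes with a length in GENCODE M21 (GRCm38), and genes without one got no offset. Merged exons gave a length for 12754 tested genes, and coding transcripts for fewer. Merged exon length was planned, and the coding transcript, like the count without shared sequence, was added after seeing the data. Shared sequence is the share of 50-base stretches of the coding transcript found in other genes' transcripts. Other settings were DESeq2 1.42.0, limma-voom (limma 3.58.1), other scalings and filters, a replicate block and leaving out each library.

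Library values are given for the 2 members of smallest p and the member nearest 0 in each class, and all immunoproteasome members. Of the leading genes of 4 pathway lists, some have library values. Others, such as Tapbp, Uba1, Syvn1 and Nfe2l2, have only the fold change, SE and adjusted p. Library values of Psmb5, Psmb6 and Psmc3ip were added after they were seen. The members, lists and motifs were chosen with earlier results of these data known. Same-numbered replicates did not deviate together (correlations of -0.0054, -0.0038 and -0.0096). Some genes of the marker and pathway lists are not reported here.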

Additional observations from a re-analysis of the deposited data

How the results depend on the processing

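The 23 members lower became 19 to 27 over the alternatives, and 20 to 24 when a library was left out. The 1 member higher (Psme4) became 0 with library totals in place of TMM, with DESeq2, without robust dispersion and with a length offset alone, and 0 to 1 when a library was left out. The median of the members was -0.0673 with the coding transcript offset. The cause was not tested. Same-numbered replicates did not deviate together, which does not show whether the samples were paired. With the replicate block, 22 members were lower and 0 higher, and 4468 genes were called in place of 4627. The replicate block with the length and GC offset gave 27 lower and 1 higher. DESeq2 called 3561 genes.

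Some values that were not called turned their sign. Psma2 was at 0.0264 with the length and GC offset, 0.0273 with the block added, 0.0255 by longest transcript and 0.0306 by coding transcript, and Psmb4 at 0.0021 with upper quartile scaling and 0.0027 by coding transcript. Nfe2l1 was at -0.0036 with the length offset, -0.0325 with GC content added, -0.0327 with the block as well, -0.0432 by longest transcript and -0.0447 by coding transcript, and Ddi2 at -0.0093 and -0.0102 by these 2 lengths. With a library left out, Psma2 ranged from -0.0497 to 0.0061, Psmb4 from -0.0265 to 0.0035, Psmd7 from -0.0571 to 0.0163, Psmg1 from -0.0286 to 0.0519, Psmf1 from -0.0696 to 0.0406, Psmb9 from -0.3843 to 0.0797 and Nfe2l1 from -0.0038 to 0.0343.

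In shCtrl, per length of the longest transcript, Psmb8 was 14.97% of Psmb5, Psmb9 0.510% of Psmb6 and Psmb10 12.3% of Psmb7; by coding transcript Psmb8 was 17.5% and Psmb10 5.01%, since the lengths differ. Leaving out members with shared sequence or overlapping exons, a choice made after seeing the data, left 17 of 32 tested genes lower and 1 higher. Psmb9, with 17 to 48 counts per library, was the tested member with fewer than 100 counts in a library.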
